A study of Mus musculus with 6 samples.

Results

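The genes described here are 32 genes of cholesterol synthesis, control and transport, taken by symbol from a table of 34745 genes measured in mouse cerebral cortex by RNA sequencing at postnatal day 8. All 32 were found in the table and all passed the filter on low values, which left 14147 genes. They fall into 19 enzymes of synthesis, 5 genes of control, and 8 genes of transport, storage and turnover. The study compared 3 Pen-2 cKO cortex samples (Pen-2 F/F; hGFAP-Cre) with 3 Control cortex samples (Pen-2 F/F), so both Pen-2 alleles were floxed in every sample and the Cre transgene was given for the cKO samples alone. *Psenen* encodes PEN-2, which γ-secretase needs in order to cleave Notch receptors and other membrane proteins. The human GFAP promoter that drives Cre is known to be active in radial progenitors of the cortex as well as in astrocytes. The titles number the samples without naming animals, so the p-values cover spread among these 6 samples, which may be technical. Because Cre and the deletion go together in this design, what each of them does cannot be told apart.

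Cholesterol does not cross the blood-brain barrier, so the brain makes its own. Astrocytes and oligodendrocytes are its main producers in the postnatal brain, and oligodendrocytes need large amounts for myelin. SREBP-2, encoded by *Srebf2*, induces the enzymes of synthesis when sterols are low: SCAP carries it out of the endoplasmic reticulum, and INSIG proteins hold it there when sterols are plentiful. Liver X receptors (*Nr1h2*) sense oxidised sterols and induce the exporters *Abca1* and *Abcg1* and the lipoprotein gene *Apoe*.

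Values are FPKM (fragment counts scaled by transcript length and library total), which can be compared between genes, with implied depths of 20251900 to 26809300 fragments per library. Differences are log2 fold changes of cKO over Control on log2(FPKM + 0.1), tested with limma over all 14147 genes and called at a Benjamini-Hochberg adjusted p under 0.05. *Psenen* fell: it had 3.56, 3.90 and 4.03 FPKM in the cKO libraries and 6.35, 6.86 and 7.32 FPKM in the Control libraries (log2 -0.82, SE 0.09, limma adjusted p = 0.00441). Homeostatic astrocyte markers fell in 10 of 12 cases, with summed levels of 149 to 223 FPKM in cKO libraries and 458 to 548 FPKM in Control libraries. Myelinating oligodendrocyte markers rose in 10 of 12 cases, with sums of 128 to 199.9 FPKM in cKO libraries and 29.7 to 47.1 FPKM in Control libraries. The 8 neuronal markers summed to 1805 to 1951 FPKM in cKO libraries and 2161 to 2219 FPKM in Control libraries, with a median log2 difference of -0.05. Without *Tubb3*, the most abundant of them, the sums overlapped, at 679 to 772 FPKM in cKO libraries and 746 to 861 FPKM in Control libraries. No marker of these lists was at 0. In bulk tissue, fewer cells of a type and less RNA per cell cannot be told apart.

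None of the 32 cholesterol genes passed the test. Of the 32 genes, 0 were called with limma, where 5.53% of all tested genes were called (3.67% higher and 1.87% lower in cKO cortex). At that share few calls would fall in a list of 32, so the count alone does not set these genes apart. At an unadjusted p under 0.05 the count was 10 of 32 (7 higher and 3 lower), where 22.9% of all tested genes reached it. In the authors' deposited table, 0 of the 32 genes carried an up or down call, and the lowest q-value among them was that of *Abcg1*, at 0.0535. The group FPKM in the authors' deposited table are not means of the deposited libraries: the cKO group value lay above all 3 cKO libraries for 8 of the 32 genes and below all 3 for 5. In that table *Apoe* was at 119 FPKM in cKO and 73.4 FPKM in Control cortex and *Abca1* at 12.9 FPKM in cKO and 6.43 FPKM in Control cortex, opposite in direction to the library means given here. For 9 of the 32 genes, and for 2077 of the 14147 tested genes, the direction in the authors' deposited table was opposite to that of the library means. The making of those group values was not given in the sources used here. In the limma fit, the median log2 difference was 0.13 over the 32 genes and 0.07 over all tested genes. By class it was 0.13 over the 19 enzymes, 0.03 over the 5 control genes and 0.12 over the 8 transport genes. The groups did not overlap in 6 of the 32 genes (4 with cKO above and 2 with cKO below), where 29.7% of all tested genes did not overlap (21.5% above and 8.17% below).

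**Figure D1:**
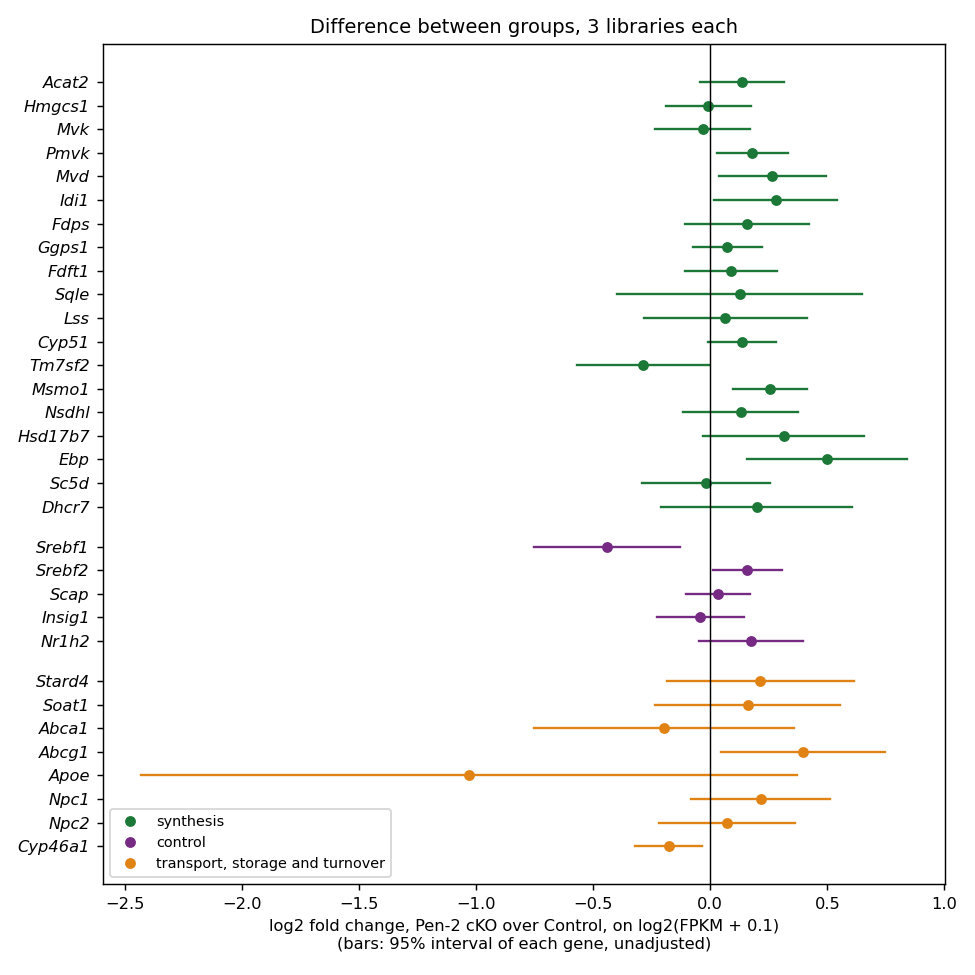
Log2 fold change of each gene, Pen-2 cKO over Control (x axis, log2 scale), with its unadjusted 95% interval as a bar, for 3 libraries per group and coloured by class. Enzyme values lie between -0.29 and 0.50, while *Apoe* has the widest interval, -2.43 to 0.37.

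The intervals set a limit on what could have been missed. Among the 19 enzymes the 95% intervals, not adjusted for the number of genes, ran from -0.57 at the lowest bound (*Tm7sf2*) to 0.84 at the highest (*Ebp*), so a 2-fold change in either direction lay outside each of them. The part of the shifts in glial markers in the enzyme levels was not tested.

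**Figure D2:**
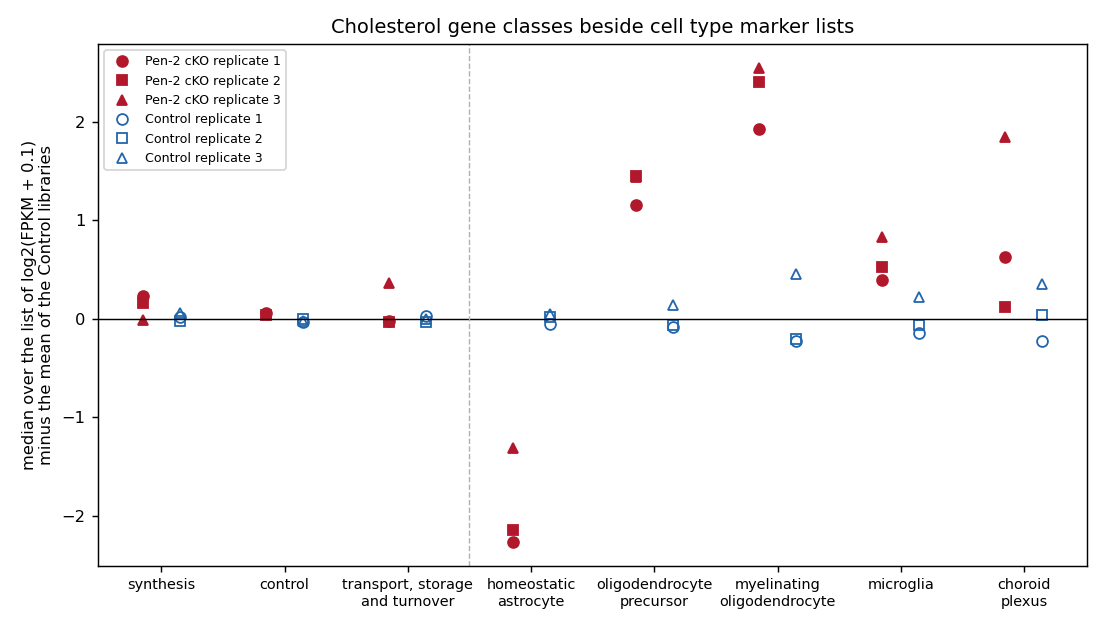
Median over each list of log2(FPKM + 0.1) minus the mean of the Control libraries (y axis), 1 point per library, for the 3 cholesterol classes (left of the dashed line) and 5 cell type marker lists. The synthesis medians lie between -0.02 and 0.23 in cKO libraries, whereas the astrocyte medians lie between -2.27 and -1.31 and the myelinating oligodendrocyte medians between 1.93 and 2.55.

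Promoter stretches are shown for 3 enzymes, 200 bases before the RefSeq transcription start on the strand of the gene (RefSeq, GRCm38.p6). They are *Hmgcs1*, the most abundant enzyme, and *Pmvk* and *Ebp*. All cKO libraries exceeded all Control libraries in *Pmvk* and *Ebp*, and also in *Msmo1*, which is not shown. These were 3 of the 19 enzymes, where 21.5% of all tested genes had all cKO libraries above, so this does not set the enzymes apart. Capitals mark the sterol regulatory element TCACNCCAC, the E-box CACGTG, the NF-Y box CCAAT and the Sp1 box GGGCGG, on either strand.
Hmgcs1 (chr13:119690151-119690350, plus strand): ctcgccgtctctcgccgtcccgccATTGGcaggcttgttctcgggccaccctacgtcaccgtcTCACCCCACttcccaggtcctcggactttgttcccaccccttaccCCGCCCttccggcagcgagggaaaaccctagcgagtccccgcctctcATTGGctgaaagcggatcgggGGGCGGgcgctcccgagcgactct
Pmvk (chr3:89454341-89454540, plus strand): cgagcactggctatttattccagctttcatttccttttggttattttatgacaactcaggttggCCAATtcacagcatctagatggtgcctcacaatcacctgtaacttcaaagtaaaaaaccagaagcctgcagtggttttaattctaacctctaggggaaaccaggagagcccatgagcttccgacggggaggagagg
Ebp (chrX:8193513-8193712, minus strand): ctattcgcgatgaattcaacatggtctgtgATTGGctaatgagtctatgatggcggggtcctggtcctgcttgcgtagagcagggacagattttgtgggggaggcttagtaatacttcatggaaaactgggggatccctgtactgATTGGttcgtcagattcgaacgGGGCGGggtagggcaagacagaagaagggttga

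In *Hmgcs1* the sterol regulatory element begins at position -137 from the RefSeq start site. The stretch shown ends at 119690350, and the deposited range of the gene begins at 119690462. Bases just after that RefSeq start were found in 0 GENCODE M21 transcripts of *Hmgcs1*, and in 1 each of *Pmvk* and *Ebp*, so the position holds for the RefSeq start alone. The element was the only such match among the 26 cholesterol genes with a promoter window (250 bases before to 50 after the start). Of all 27025 genes with a window, 1.44% held it. The NF-Y box, a site of a factor that works beside SREBPs, was found in 15 of 16 enzymes and in 41.1% of all genes. The Sp1 box was found in 14 of 16 enzymes and in 38.2% of all genes, and the E-box in 3 of 16 enzymes and in 8.09% of all genes. These are exact matches of letters: a match does not show binding, and the lack of one does not show the lack of a site. In the stretches shown, no 2 matches overlap.

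The early enzymes turn acetyl-CoA into isoprenoid units. *Hmgcs1* (ENSMUSG00000093930, mm10 chromosome 13, 119690462 to 119708086), which makes HMG-CoA, was the most abundant of the 32 genes. It had 359, 345 and 292 FPKM in the cKO libraries and 332, 337 and 328 FPKM in the Control libraries. The Control values lay inside the cKO range, with cKO replicate 3 lowest, and the means were 332 ± 35.3 FPKM in cKO and 333 ± 4.64 FPKM in Control cortex (SD, n = 3 each). The log2 difference was -0.01 (95% interval -0.19 to 0.17).

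*Acat2*, the thiolase that starts the pathway, had 43.5, 40.4 and 35.6 FPKM in cKO and 36.8, 35.9 and 35.7 FPKM in Control libraries. Its paralog *Acat3* lay at 2.90 FPKM in cKO and 3.23 FPKM in Control cortex, and how reads shared by such copies were assigned is not given in the sources used here. *Pmvk*, phosphomevalonate kinase (ENSMUSG00000027952, chromosome 3, 89454541 to 89469013), had 24.2, 23.3 and 21.5 FPKM in cKO and 19.5, 20.3 and 21.0 FPKM in Control libraries. All its cKO values lay above all Control values, by 0.18 on the log2 scale, but it did not pass (adjusted p = 0.156). *Mvk*, mevalonate kinase, which acts before it, was at 13.2 ± 1.29 FPKM in cKO and 13.4 ± 0.631 FPKM in Control cortex.

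*Mvd*, which removes a carboxyl group to form isopentenyl diphosphate, and *Idi1*, which isomerises it, had log2 differences of 0.26 and 0.28, with adjusted p of 0.166 and 0.194 (limma). *Idi1* had 25.3, 23.7 and 19.99 FPKM in cKO and 18.7, 17.0 and 21.1 FPKM in Control libraries, so the groups overlapped through cKO replicate 3 and Control replicate 3. *Fdps*, which joins isoprenoid units to farnesyl diphosphate, was at 21.6 ± 3.41 FPKM in cKO and 19.3 ± 0.711 FPKM in Control cortex. Its exons share 26.7% of their bases with *Gm43738* on the same strand, so its level is uncertain. *Ggps1*, which leads off to geranylgeranylated proteins, had 15.3 ± 0.632 FPKM in cKO and 14.6 ± 0.593 FPKM in Control cortex.

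The middle enzymes commit farnesyl units to sterols. *Fdft1* (squalene synthase), second to *Hmgcs1* in level among the enzymes, had 66.4, 62.3 and 53.0 FPKM in cKO and 58.2, 55.6 and 56.4 FPKM in Control libraries. Its groups overlapped, and the log2 difference was 0.09 (95% interval -0.11 to 0.28). *Fdft1* shares 18.3% of its exon bases with *Ctsb* on the opposite strand, which averaged 84.0 FPKM over the 6 libraries, and whether counting used strand is not given in the sources used here. *Sqle* (squalene epoxidase, a second control point of the pathway) varied most among the Control enzymes, at 24.4, 18.3 and 16.4 FPKM in cKO and 20.3, 13.0 and 21.3 FPKM in Control libraries. *Lss*, which closes the ring to lanosterol, had the lowest mean of the 19 enzymes over all libraries, 4.08 FPKM. It was at 4.17 ± 0.551 FPKM in cKO, where *Tm7sf2* was lower, and 3.99 ± 0.620 FPKM in Control cortex, where *Ebp* was lower. The enzymes thus spanned levels of 4.08 to 332 FPKM over all libraries, with a median of 18.9 FPKM.

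The late enzymes turn lanosterol into cholesterol. *Ebp*, a sterol isomerase (ENSMUSG00000031168, chromosome X, 8185329 to 8193512), had 5.45, 5.40 and 4.79 FPKM in cKO and 3.20, 3.35 and 4.55 FPKM in Control libraries. All cKO values lay above all Control values, with Control replicate 3 nearest to them. Its log2 difference of 0.50 (SE 0.15, 95% interval 0.16 to 0.84) was the highest of the 32 and did not pass (limma adjusted p = 0.0970). Without Control replicate 3 it passed, at log2 0.65 (adjusted p = 0.0234), in a fit that called 5.95% of all genes (4.11% higher and 1.84% lower). *Msmo1*, which oxidises the methyl groups of early sterols, had 8.32, 8.13 and 8.54 FPKM in cKO and 7.06, 6.84 and 7.002 FPKM in Control libraries. The groups did not overlap and both were tight, yet the log2 difference of 0.25 missed the threshold (adjusted p = 0.0752). With libraries scaled to equal sums *Msmo1* passed at log2 0.31 (adjusted p = 0.0437), where 8.14% of all genes were called (6.41% higher and 1.72% lower).

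*Hsd17b7* and *Nsdhl*, which complete removal of those methyl groups, had log2 differences of 0.31 and 0.13. *Cyp51*, the lanosterol demethylase, had 33.8 ± 1.35 FPKM in cKO and 30.7 ± 1.77 FPKM in Control cortex. *Tm7sf2*, a sterol reductase, had the lowest log2 difference among the enzymes, -0.29 (adjusted p = 0.214), at 4.01 ± 0.494 FPKM in cKO and 4.90 ± 0.434 FPKM in Control cortex. It shares 12.1% of its exon bases with *Vps51* on the same strand. *Sc5d*, a desaturase, and *Dhcr7*, a reductase that acts at the end of the pathway, had log2 differences of -0.02 and 0.20, and *Dhcr7* ranged from 7.24 to 11.7 FPKM within the Control group.

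**Figure D3:**
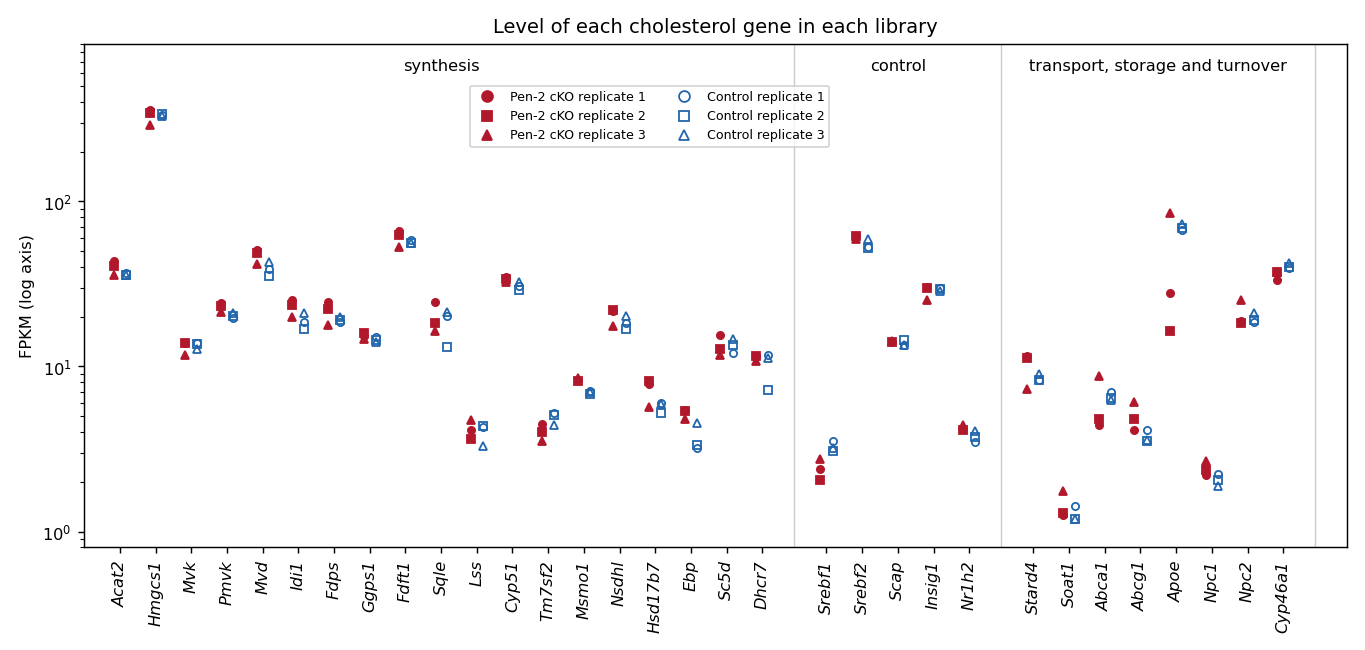
FPKM of each of the 32 genes in each library (log y axis), with cKO libraries as filled and Control libraries as open symbols and genes grouped by class. Most groups overlap or nearly touch, and cKO replicate 3 (filled triangle) is the lowest cKO library in 17 of 19 enzymes but stands far above the other cKO libraries in *Apoe*. The share of all tested genes with cKO replicate 3 lowest was not computed.

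Among the control genes, *Srebf1* and *Srebf2* lay on opposite sides of 0. *Srebf1*, which encodes the SREBP-1 factors of fatty acid synthesis (ENSMUSG00000020538, chromosome 11, 60199089 to 60222581), had 2.38, 2.05 and 2.76 FPKM in cKO and 3.52, 3.08 and 3.21 FPKM in Control libraries. All cKO values were below all Control values, with a log2 difference of -0.44 (SE 0.13, 95% interval -0.75 to -0.13) that did not pass (limma adjusted p = 0.105). *Srebf2* (ENSMUSG00000022463, chromosome 15, 82147266 to 82205376), far more abundant, had 62.1, 62.1 and 59.0 FPKM in cKO and 53.1, 52.1 and 59.2 FPKM in Control libraries. Control replicate 3 reached the cKO range, and the log2 difference was 0.16 (95% interval 0.01 to 0.30, adjusted p = 0.187).

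*Insig1*, itself a target of SREBPs, had 30.5, 30.1 and 25.3 FPKM in cKO and 29.9, 29.4 and 28.7 FPKM in Control libraries, which overlap (log2 -0.04, 95% interval -0.23 to 0.14). *Scap* was at 14.1 ± 0.128 FPKM in cKO and 13.8 ± 0.531 FPKM in Control cortex. *Nr1h2* had 4.21, 4.13 and 4.40 FPKM in cKO and 3.48, 3.75 and 4.05 FPKM in Control libraries, with cKO above but no pass (log2 0.17, adjusted p = 0.328). The median over the 5 control genes, 0.03, was below that of all tested genes, 0.07, and turned negative (-0.04 and -0.03) under median-ratio and upper-quartile scaling, which moved the median of all tested genes by -0.07 and -0.06.

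Transport genes varied more between cKO libraries than enzymes did. The median coefficient of variation within the cKO group was 19.0% over the 8 transport genes and 10.6% over the 19 enzymes; within the Control group it was 6.35% and 7.43%. *Apoe*, the main apolipoprotein made by astrocytes (ENSMUSG00000002985, chromosome 7, 19696109 to 19699166), had 28.1, 16.4 and 85.0 FPKM in cKO and 67.1, 68.7 and 73.1 FPKM in Control libraries. Replicates 1 and 2 of the cKO group were below, and replicate 3 above, every Control library. The means were 43.2 ± 36.7 FPKM in cKO and 69.6 ± 3.08 FPKM in Control cortex (SD, n = 3 each), and the log2 difference of -1.03 had an interval of -2.43 to 0.37 (adjusted p = 0.352).

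*Abca1*, which loads cholesterol onto apolipoproteins, showed the same order, with 4.45, 4.84 and 8.70 FPKM in cKO and 7.05, 6.45 and 6.29 FPKM in Control libraries. *Abcg1*, the exporter to lipoprotein particles, had 4.15, 4.798 and 6.06 FPKM in cKO and 4.15, 3.51 and 3.57 FPKM in Control libraries, overlapping at replicate 1 of each group (log2 0.39, adjusted p = 0.174). *Stard4*, a cytosolic sterol carrier, had 11.6, 11.3 and 7.34 FPKM in cKO and 8.27, 8.30 and 8.99 FPKM in Control libraries, so cKO replicate 3 was lowest of all. *Soat1*, which esterifies cholesterol for storage, was the least abundant of the 32, at 1.44 ± 0.268 FPKM in cKO and 1.27 ± 0.133 FPKM in Control cortex.

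*Npc1* and *Npc2*, which move cholesterol out of lysosomes, had log2 differences of 0.22 and 0.07. *Cyp46a1*, the neuronal hydroxylase that turns cholesterol into a form able to leave the brain (ENSMUSG00000021259, chromosome 12, 108334377 to 108362231), had 33.5, 37.5 and 37.2 FPKM in cKO and 39.7, 40.2 and 42.3 FPKM in Control libraries. All cKO values lay below all Control values, with a log2 difference of -0.18 (SE 0.06, 95% interval -0.32 to -0.03) that did not pass (limma adjusted p = 0.144). Of the 8 neuronal markers, 1 was called higher and 1 lower, and the lower sum in every cKO library rested on *Tubb3* (above). By sign, 6 of the 8 had a negative log2 difference, where 36.4% of all tested genes did. In 3 of the 8 all cKO values lay below all Control values, and in 1 above, where 8.17% and 21.5% of all tested genes did. *Tubb3*, a neuronal tubulin, fell to 1141 ± 45.1 FPKM in cKO, against 1404 ± 41.7 FPKM in Control cortex, while *Gad1*, the GABA-synthesising enzyme, rose with a log2 fold change of 0.58; both calls were lost without Control replicate 1, without Control replicate 2 or without cKO replicate 2. The part of neuronal content in *Cyp46a1* was not tested.

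A single library shaped several of these values. In cKO replicate 3 the enzymes were the lowest of the cKO group in 17 of 19 cases and the transport genes the highest in 6 of 8. How often that library was lowest or highest over all tested genes was not computed, so these counts may not be particular to the cholesterol genes. Summed over the 19 enzymes, the level was 761, 724 and 624 FPKM in cKO replicates 1, 2 and 3 and 671, 653 and 677 FPKM in the Control libraries. The same cKO replicate had the highest summed choroid plexus markers, 885 FPKM, against 328 and 184 FPKM in the other cKO libraries and 35.0 to 181 FPKM in Control libraries. *Ttr* made up most of each sum, at 877 FPKM in cKO replicate 3 and 324 and 182 FPKM in the other cKO libraries. It had 33.1 to 178 FPKM in Control libraries. The median log2 difference of the list from the Control mean was 1.84 in cKO replicate 3, against 0.62 and 0.11. Of its 6 genes 3 were tested and 0 called. In cKO replicate 3 the astrocyte markers summed to 223 FPKM, against 149 FPKM in each of the other cKO libraries. Its microglial markers summed to 209 FPKM, against 132 and 145 FPKM in the other cKO libraries. Neuronal markers were instead lowest there: without *Tubb3* they summed to 679 FPKM, against 759 and 772 FPKM in cKO replicates 1 and 2. Their median log2 difference from the Control mean, with *Tubb3*, was -0.23 in cKO replicate 3, against -0.01 and 0.06. The part of these markers in the values of the cholesterol genes was not tested.

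**Figure D4:**
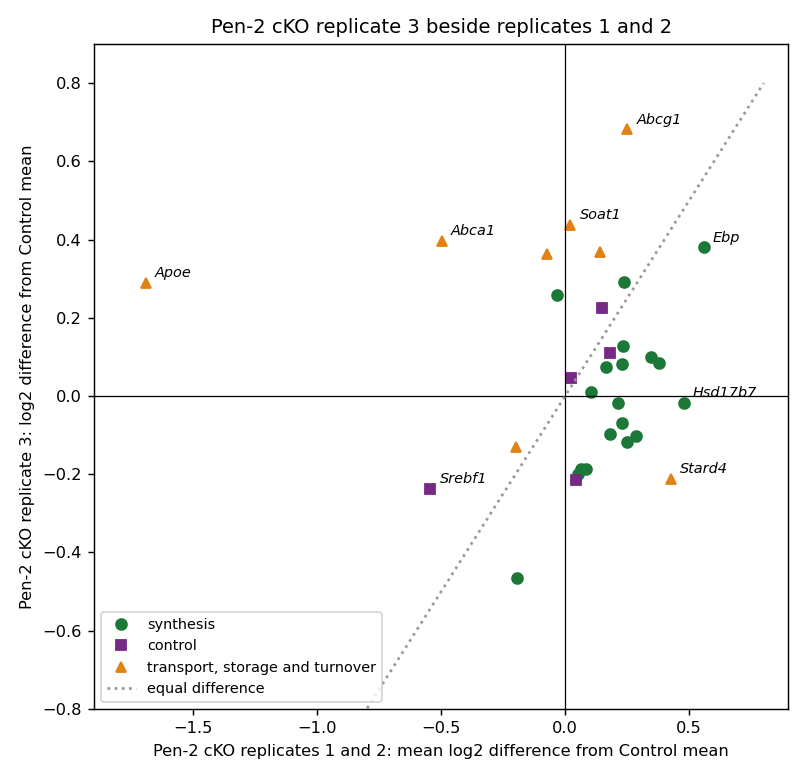
Log2 difference from the Control mean in cKO replicate 3 (y axis) against the mean of cKO replicates 1 and 2 (x axis), 1 point per gene, coloured by class, with the dotted line marking equal differences. Most enzymes lie right of 0 and under the line, while *Apoe* and *Abca1* lie left of 0 and above it.

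With cKO replicate 3 left out, 4 of the 32 genes were called, where 4.52% of all tested genes were called (2.33% higher and 2.18% lower). *Apoe* fell, to a mean of 22.3 FPKM over cKO replicates 1 and 2, against 69.6 FPKM in Control cortex (log2 -1.69, SE 0.21, limma adjusted p = 0.0135). Without cKO replicate 2 instead, the *Apoe* difference was -0.51 (adjusted p = 0.636), and without cKO replicate 1 it was -0.89 (adjusted p = 0.585). *Abca1* fell with a log2 fold change of -0.50 (adjusted p = 0.0443), at 4.64 FPKM in cKO and 6.59 FPKM in Control cortex. *Stard4* rose with a log2 fold change of 0.43 (adjusted p = 0.0336) and *Hsd17b7* with one of 0.48 (adjusted p = 0.0481). The median log2 difference became 0.23 over the 19 enzymes and -0.03 over the 8 transport genes, and was 0.07 over all tested genes. Over the enzymes it was 0.07 without cKO replicate 1 and 0.13 without cKO replicate 2, and over all libraries 0.07 with median-ratio scaling. In 13 of 19 enzymes, both remaining cKO libraries lay above all Control libraries, where 28.1% of all tested genes did; 0 enzymes lay below, where 12.4% of all genes did, and 40.6% did not overlap in either direction. With only 2 cKO libraries, and with the library chosen after its values were seen, these calls describe the dependence on that library.

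Among 35 further cholesterol genes, 34 were matched in the table and 29 were tested; 1 rose and 0 fell, with 8 at an unadjusted p under 0.05, where 5.53% and 22.9% of all tested genes reached these levels. *Lipa*, the lysosomal lipase that frees cholesterol from its esters, rose: it had 6.55, 7.38 and 8.72 FPKM in cKO and 5.28, 4.59 and 5.14 FPKM in Control libraries. Its groups did not overlap (log2 0.58, SE 0.12, limma adjusted p = 0.0387). The call was lost in 10 of 17 alternatives, among them 5 of the 6 that leave out a library (all but cKO replicate 1), with adjusted p from 0.0246 to 0.133 and log2 fold changes from 0.47 to 0.67. Microglia, which are rich in lysosomes, had higher marker sums in every cKO library, 132 to 209 FPKM, than in the Control libraries, 90.6 to 109.7 FPKM, and their part in the *Lipa* value was not tested. *Lcat* and *Clu*, which astrocytes express, had log2 differences of -1.06 and -0.65 (adjusted p = 0.114 and 0.0691), and both fell without cKO replicate 3, with log2 fold changes of -1.45 and -0.84 (limma adjusted p = 0.0068 and 0.00575). None of the 5 further synthesis genes or 9 further control genes tested passed, with 0 and 2 at an unadjusted p under 0.05. *Lcat* and *Clu* were named after their values were seen, as was the choroid plexus marker *Ttr*. So were the per-library values of *Acat2*, *Pmvk*, *Idi1*, *Sqle*, *Msmo1*, *Nr1h2*, *Stard4*, *Abca1* and *Abcg1*.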

How the data were processed

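Total RNA of mouse cortex was sequenced from 6 samples. The deposited values are FPKM, per the file headers, although the series-wide table is named for counts. Per the submitters' processing notes, reads were placed on mm10. Aligner, counting program, annotation and use of strand were not given in the sources used here. Authors' deposited group FPKM and q-values come without a stated test. The 6 tables of single libraries repeat the values of the series-wide one. Depth was estimated from the smallest steps in genes with 1 transcript, of whose values up to 50 fragments 83.5% to 93.4% came out within 0.01 of a whole fragment per library; counts of other genes were not recovered, so no count test was run.

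A gene was tested if 3 or more libraries reached 0.5 FPKM, with limma 3.58.1 in R 4.3.3 (mean-variance trend, robust variances) on log2(FPKM + 0.1), a scale that understates the change of low genes, with group as the only term. Benjamini-Hochberg adjustment covered every tested gene. The steps were tested on simulated data. The cholesterol genes, the lists and the tests were chosen with earlier results of these data known. Per-library values were planned for called genes, for those without overlap of groups and with a log2 difference of at least 0.3, and for the 2 most abundant of each class; others are marked as named later. *Erg28* was matched by gene ID to an older symbol, and *Faxdc2* was not matched. Promoters are from RefSeq (GRCm38.p6), and overlaps from GENCODE M21. Summaries and figures used pandas 2.3.3, matplotlib 3.10.9 and NumPy 2.4.6 under Python 3.11.15. Some genes are not reported here.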

Additional observations from a re-analysis of the deposited data

How the results depend on the processing

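None of the 32 cholesterol genes was called in the fit of all libraries, so none could lose a call, and none that was called under any alternative changed direction. Of 544 values of the 32 genes under 17 alternatives, 536 kept their side of the threshold. The 8 others were newly called: *Msmo1* with equal sums, *Ebp* without Control replicate 3, *Apoe*, *Abca1*, *Stard4* and *Hsd17b7* without cKO replicate 3 (values above), and *Msmo1* and *Ebp* at an adjusted p under 0.1. The enzymes called higher thus numbered 0 in the fit of all libraries, 1 with equal sums, 2 at an adjusted p under 0.1 and 0 to 1 with a library left out. With a library left out, transport genes numbered 0 to 1 called higher and 0 to 2 called lower. Over all tested genes, 519 were called higher and 264 lower (66.3% higher). With equal sums the calls were 907 higher and 244 lower (78.8%), with median-ratio scaling 314 and 343 (47.8%), with upper-quartile scaling 351 and 346 (50.4%), with no filter 323 and 176, and at an adjusted p under 0.1, 1070 and 449. With a library left out they ranged from 135 to 582 higher and from 85 to 309 lower. Scaling moved the median log2 difference of all genes by -0.07 to 0.05. With the replicate number as a block, 290 genes were called higher and 166 lower and none of the 32 cholesterol genes was called. In that fit *Lipa* missed the threshold (limma adjusted p = 0.0694) and *Clu* passed it (limma adjusted p = 0.0353). The correlations of same-numbered samples' deviations were 0.06, 0.01 and 0.10, and those of differently numbered samples ran from -0.09 to 0.06. All were low, and the numbers were not taken to pair the samples. With 3 samples per group, the *Apoe* interval (-2.43 to 0.37) held both no change and a loss of more than 2-fold.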
